A study of Mus musculus with 21 samples.

Results

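The 9 genes described here encode receptors that guide lymphocytes to tissues, and were followed in EL4 cells, a T lymphoma line from C57BL/6 mice, with and without a hairpin against Ctcf: Ccr4, Ccr7, Ccr8, Ccr9, Cxcr3, Cxcr4, Cxcr5, Cxcr6 and S1pr1. They were found by symbol in the deposited expression table, with the row of highest mean level kept for each, and all 9 of 9 were present among 21844 symbols. The set was selected on measured values, namely the lower RPKM of Ccr4 and Ccr9 in shCTCF libraries, with the other genes added as receptors of the same kind. Their differences between the groups are therefore given as a description. Where calls or p-values of a fit are printed for them, these are no test of the receptors. The groups were EL4 cells with a short hairpin against luciferase (shLuc, the control, 2 libraries) and EL4 cells with a short hairpin against Ctcf (shCTCF, 2 libraries). CTCF, a DNA-binding factor with zinc fingers, marks insulators and shapes chromatin loops, and the study as a whole of 21 samples asked how it acts on contacts between enhancers and promoters. The labels give no time, no way of delivering the hairpin and no second hairpin, so what comes from less Ctcf and what comes from the hairpin otherwise cannot be told apart. The labels do not state whether the 2 libraries of a hairpin are separate cultures. The p-values therefore reflect the spread of these libraries alone, which may be technical.

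Chemokine receptors are membrane proteins that signal through G proteins of the Gi class and turn a gradient of a chemokine into directed migration and integrin activation. Different receptors lead T cells to different places. CCR9 responds to CCL25 of thymus and small intestine, CCR4 to CCL17 and CCL22, and CCR8 to CCL1 and, in mice, to CCL8. CXCR4 responds to CXCL12 of bone marrow and other stroma and helps to hold cells there. CXCR6 binds CXCL16 and CXCR3 binds chemokines induced by interferon. CCR7 and CXCR5 lead cells into the T cell zone and the follicles of lymphoid organs, and S1PR1, a receptor for the lipid sphingosine 1-phosphate (S1P), lets them leave again.

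Expression was given as RPKM (reads scaled to the length of the gene model and to library size), which allows levels to be compared between genes. One read on a model of 1 kb was worth 0.163 to 0.230 RPKM in these libraries, and whole read numbers could be recovered for 8 of the 9 genes. Libraries are named by the numbers 2 and 3 that head their columns in the deposited table. Ctcf itself lay at 49.0 and 50.9 RPKM in shLuc and at 26.5 and 26.4 RPKM in shCTCF libraries. The line had the RNA of T cells: Thy1, the most abundant of the T cell markers, had 615 ± 35.4 RPKM with the shLuc hairpin against 483 ± 21.1 RPKM with the shCTCF hairpin (SD, n = 2 each). The summed level of 12 T cell markers was 1794 to 1845 RPKM in shLuc and 1571 to 1574 RPKM in shCTCF libraries. Of these 12, Cd4 was at only 4.13 to 5.04 RPKM, Cd8b1 had at most 3 reads in a library and Cd8a was at 0 in all. Of the 10 that could be tested, 0 passed in limma, 6 had an unadjusted p below 0.05, all lower (5.93% of all tested genes), and the median log2 change was −0.22. On recovered reads, limma-voom called 3 of 9 markers lower (Thy1, Cd5 and Cd28), where it called 2.51% of all genes lower. The part of these markers in the receptor results was not tested. Myeloid markers summed to 4.11 and 5.15 RPKM in shLuc and to 6.76 and 5.23 RPKM in shCTCF libraries, with 4 of 10 at 0 in every library. Only 2 of the 10 could be tested, and they went in opposite directions. Cd68 was at 1.70 and 1.46 against 3.65 and 3.10 RPKM (log2 change 0.76, adjusted p 0.089 in limma, unadjusted p below 0.05). These values rested on only 9 and 9 against 16 and 18 reads, and limma-voom did not call Cd68. Itgam was at 1.92 and 3.10 against 2.36 and 1.74 RPKM, overlapping (log2 change −0.19, not called). The part of Cd68 in the receptor results was not tested. The markers of B cells summed to at most 0.951 RPKM, those of NK cells to at most 1.69 RPKM and those of fibroblasts to at most 1.76 RPKM.

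The 9 receptors fell into a high and a low set, and only the high set can be read closely. The high set of 5 genes had means of 12.6 to 110.3 RPKM over the 4 libraries, and the other 4 had means of 0.203 to 1.88 RPKM. Genes with a mean of 1 RPKM or more entered the fit, which 6 of the 9 did. Ccr7 was the lowest inside, at 1.88 RPKM, and Cxcr5 and Cxcr3 were just outside, at 0.997 and 0.975 RPKM.

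**Figure D1:**
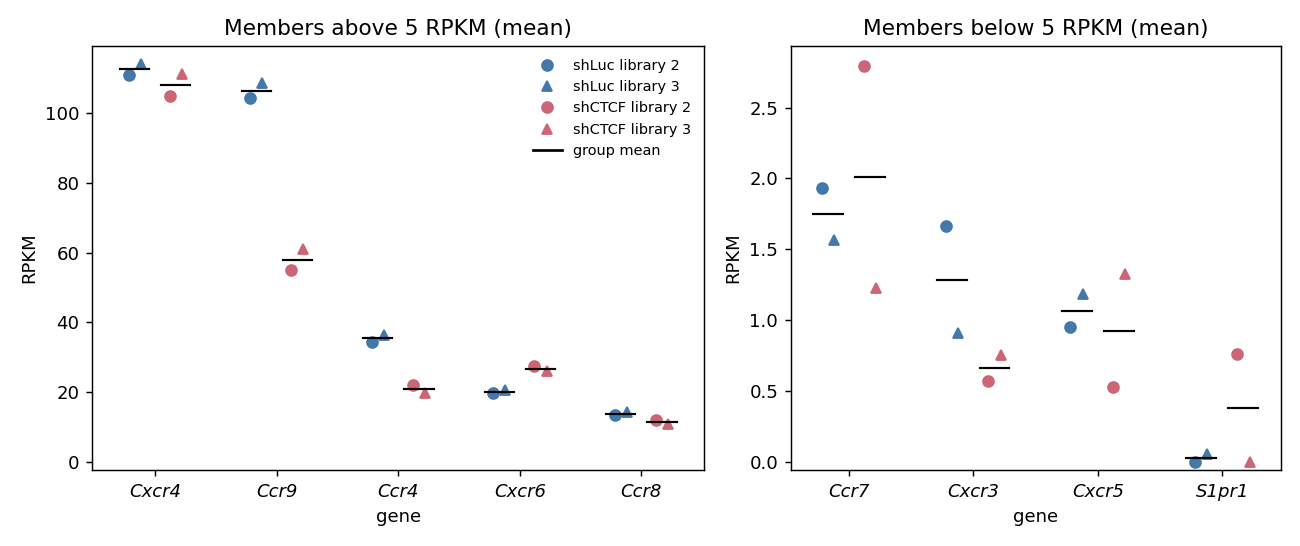
Level of each receptor gene in RPKM (y axis, linear) in the 4 libraries, with shLuc in blue and shCTCF in red, library 2 as a circle, library 3 as a triangle and the group mean as a bar. Ccr9 and Ccr4 lie lower and Cxcr6 higher in both shCTCF libraries, Cxcr4 overlaps between the groups, and the 4 genes of the right panel stay below 3 RPKM.

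Of the high set, Ccr9, Ccr4 and Ccr8 were lower in both shCTCF libraries than in both controls. Ccr9, the gut and thymus receptor, was at 104.5 and 108.6 RPKM in shLuc and at 54.9 and 61.1 RPKM in shCTCF libraries. Both shCTCF libraries lay well below both controls, at 0.545 times their mean (106.5 ± 2.87 against 58.0 ± 4.41 RPKM, SD, n = 2 each). All log2 values here are of log2(RPKM + 1), a scale on which the change of a low gene appears too small. On it Ccr9 differed by −0.87 with a standard error (SE) of 0.08. Its row joins 2 transcripts, NM_009913 and NM_001166625, and its reads could not be recovered. In bulk RNA, fewer cells with a receptor and less RNA in each cell cannot be told apart.

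Ccr4, a receptor of Th2 cells and of T cells that home to skin, was at 34.5 and 36.4 RPKM in shLuc and at 22.0 and 19.7 RPKM in shCTCF libraries. These values rested on 504 and 623 against 267 and 316 reads of the transcript NM_009916, and the groups did not overlap. The shCTCF mean was 0.588 times that of shLuc, a log2 change of −0.74 (SE 0.09). Ccr8, another receptor of Th2 cells and of regulatory T cells, showed a smaller difference in the same direction. It was at 13.4 and 14.4 RPKM in shLuc and at 11.9 and 10.8 RPKM in shCTCF libraries (81 and 102 against 60 and 72 reads), a log2 change of −0.27 (SE 0.11).

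Cxcr4, the most abundant of the receptors, overlapped between the groups. It was at 111 and 114 RPKM in shLuc and at 105 and 111 RPKM in shCTCF libraries, resting on 827 to 1270 reads in a library. The higher shCTCF library lay between the controls, and the log2 change was −0.06 (SE 0.08). Cxcr6, a receptor of activated and tissue-resident T cells, stood higher in shCTCF cells, with no overlap. It was at 19.7 and 20.6 RPKM in shLuc and at 27.5 and 26.0 RPKM in shCTCF libraries (195 and 239 against 226 and 284 reads). The shCTCF mean was 1.33 times that of shLuc, a log2 change of 0.39 (SE 0.09).

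The receptors of lymphoid organs were near the limit of detection in this line. Ccr7 was at 1.93 and 1.57 RPKM in shLuc and at 2.80 and 1.23 RPKM in shCTCF libraries, that is 20 and 19 against 24 and 14 reads. The 2 shCTCF libraries lay on either side of the controls, and the log2 change of 0.08 (SE 0.26) turned to −0.30 without shCTCF library 2 and to 0.47 without shCTCF library 3. Cxcr5 had 13 and 19 reads in shLuc and 6 and 20 reads in shCTCF libraries, and its groups overlapped too. In a RefSeq gene table Cxcr5 shares its span with Bcl9l, which was at 16.9 to 21.6 RPKM. Counting by strand is not stated, so the reads given to Cxcr5 could be of either gene. Cxcr3, the interferon-chemokine receptor, had 14 and 9 against 4 and 7 reads, or 1.66 and 0.913 against 0.572 and 0.755 RPKM, without overlap but on few reads. Ccr7 was not called in limma, and Cxcr5 and Cxcr3, with means below 1 RPKM, were not tested. At this depth no difference is read in these 3 genes.

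S1pr1, the receptor for leaving lymphoid organs, had 0 and 1 reads in shLuc libraries and 10 and 0 reads in shCTCF libraries 2 and 3. All 10 reads of the shCTCF group came from 1 library, which stood at 0.760 RPKM. A count of 0 allows up to 3 reads, or 0.189 RPKM in shLuc library 2 and 0.172 RPKM in shCTCF library 3, counting error only. No fold is given for this gene.

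Ordered by level in shLuc cells, the genes ran Cxcr4, Ccr9, Ccr4, Cxcr6, Ccr8, Ccr7, Cxcr3, Cxcr5 and S1pr1. Neighbours in this order were separated in both libraries, apart from Ccr7 and Cxcr3 and from Cxcr3 and Cxcr5, which overlapped. Among tested genes the shLuc levels of Cxcr4 and Ccr9 stood at the percentiles 93.7 and 93.3, that of Ccr4 at 72.4 and that of Cxcr6 at 54.5. In shCTCF cells Ccr9 came to the percentile 84.5 and Ccr4 to 55.4, and Cxcr6 reached 63.6. Cxcr6 thus stood above Ccr4 in both shCTCF libraries and below it in both shLuc libraries.

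The share of each receptor in the summed RNA of the 9 genes follows from these levels. Since Ccr9 and Ccr4 were selected for their lower RPKM in shCTCF libraries, the sum and the shares are a description only. The summed level of the 9 genes was 287.6 and 297.9 RPKM in shLuc and 225.9 and 232.1 RPKM in shCTCF libraries. Ccr9 made up 36.4% ± 0.076 of this sum in shLuc and 25.3% ± 1.44 in shCTCF cells, and Ccr4 made up 12.1% ± 0.17 and 9.11% ± 0.91 (SD, n = 2 each). Cxcr4 took 38.5% ± 0.19 in shLuc and 47.2% ± 1.05 in shCTCF cells, although its own level overlapped between the groups. The share of Cxcr6 was 6.87% ± 0.053 against 11.7% ± 0.68. The ratio of Ccr9 to Cxcr6 RPKM was 5.32 and 5.27 in shLuc and 2.00 and 2.35 in shCTCF libraries, while that of Ccr9 to Ccr4 overlapped between the groups (3.03 and 2.98 against 2.49 and 3.11).

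**Figure D2:**
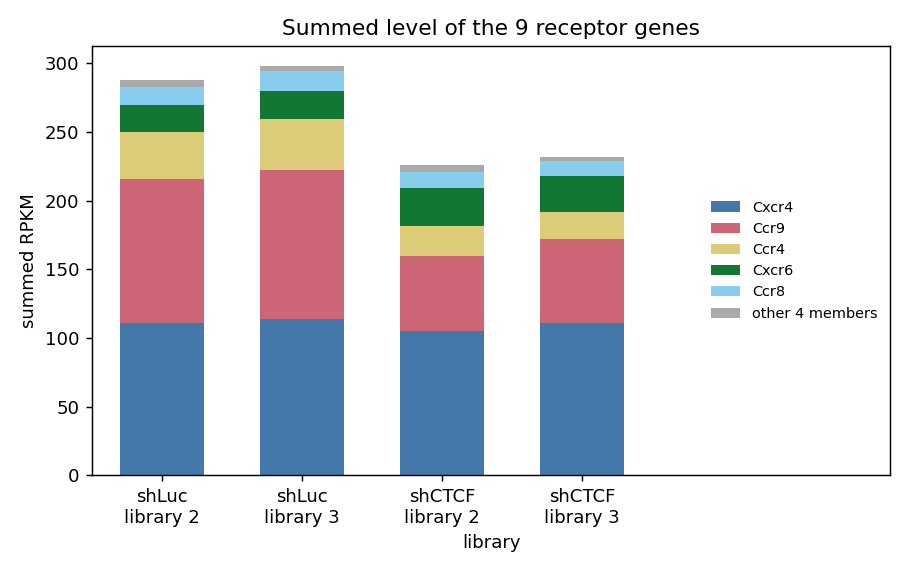
Summed RPKM of the 9 receptor genes (y axis, from 0) in each library, stacked by gene, with the 4 genes of low level joined. The sum is 287.6 and 297.9 RPKM in the shLuc and 225.9 and 232.1 RPKM in the shCTCF libraries, the Ccr9 and Ccr4 segments are shorter in shCTCF, and the Cxcr6 segment is longer.

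Against all 9898 tested genes, whose median log2 change was 0.01, Ccr9 and Ccr4 lay far out on the lower side. Only 39 tested genes had a lower log2 change than Ccr9 and 64 a lower one than Ccr4, whereas 649 had a lower one than Ccr8 and 407 a higher one than Cxcr6. The counts that follow describe where the receptors lie in the fit and are no test of them, since the set was selected on this comparison. In limma with Benjamini-Hochberg adjustment over all tested genes at 0.05, Ccr9 and Ccr4, 2 of the 6 receptors in the fit, were among the 0.596% of tested genes that were called lower. Of the 6, 0 were called higher, where 0.697% of all tested genes were, and 1 (Cxcr6) had an unadjusted p below 0.05 in that direction, as did 8.19% of all tested genes. In the lower direction 3 of the 6 (Ccr9, Ccr4 and Ccr8) had such a p, as did 5.93% of all tested genes. On recovered reads limma-voom called Cxcr6 higher, with 2.89% of its genes. Both shCTCF libraries were below both shLuc libraries for 3 of the 6 (Ccr9, Ccr4 and Ccr8), as for 19.9% of all tested genes, and above them for 1 (Cxcr6), as for 24.1%. Nothing is read from these counts. Neither Ccr9 nor Ccr4 was called in fits without shLuc library 2 or without shLuc library 3, in which limma called 0 genes lower in all (435 and 480 had an unadjusted p below 0.05).

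**Figure D3:**
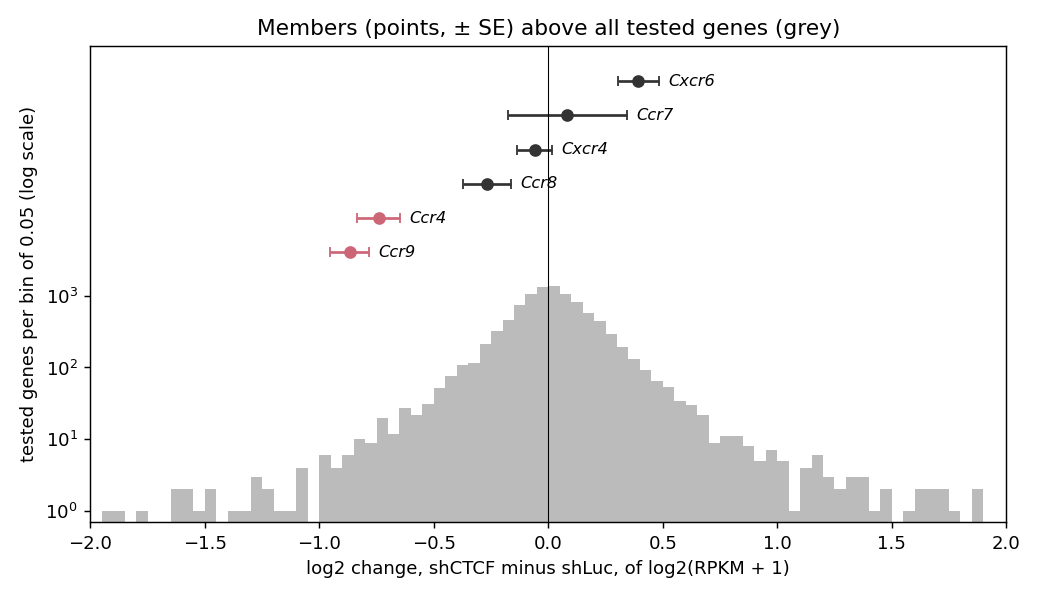
Log2 change, shCTCF minus shLuc, of the 6 receptor genes in the fit (points, ± SE, red where called lower) above the histogram of all 9898 tested genes in bins of 0.05 (grey, log scale for the bin counts, drawn between −2 and 2; the heights of the points carry no value). Ccr9 at −0.87 and Ccr4 at −0.74 lie in the sparse lower tail, while Ccr8, Cxcr4, Ccr7 and Cxcr6 lie between −0.27 and 0.39.

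The authors' deposited table of 435 changed genes lists 3 of the 9 receptors. It gives Ccr9 a log2 fold change of −0.88 with an FDR of 1.5e-23 and Ccr4 one of −0.79 with an FDR of 3.1e-11. It also lists Cxcr6, at 0.39 with an FDR of 0.033, which limma on the RPKM values, with no replicate block, did not call. The sizes of the 3 changes in the authors' deposited table were within 0.05 of those of the fit here. Both are of the same comparison of hairpins, on which the receptors were selected. The listing, its FDRs and the like sizes are therefore a description and no independent test of them.

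Of the 9 genes, the 5 genes Ccr4, Ccr8, Ccr9, Cxcr5 and Cxcr6 lie on chromosome 9, and Ccr9 and Cxcr6, which differed in opposite directions, are close neighbours there. A RefSeq gene table of the assembly GRCm38.p6, used only for gene order since the reads were aligned to mm9, has a single protein-coding start between them, that of Fyco1. Cxcr6 lies within the span of Fyco1, whose product acts in the transport of autophagosomes. The row of Fyco1 was at 4.08 and 4.15 RPKM in shLuc and at 4.34 and 4.46 RPKM in shCTCF libraries, a log2 change of 0.08 (adjusted p 0.87 in limma). Its level was below that of Cxcr6 in every library. Counting by strand is not stated, so reads in the span of both genes could be assigned to either.

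Lztfl1, which encodes a regulator of transport into cilia, precedes Ccr9. It was at 53.5 and 66.1 RPKM in shLuc and at 35.1 and 41.0 RPKM in shCTCF libraries (960 and 1387 against 522 and 809 reads). The groups did not overlap, and the log2 change of −0.64 (SE 0.12) just missed the threshold, with an adjusted p of 0.0503 in limma. It passed in 4 of 11 alternatives, among them the fit of genes with a mean of 5 RPKM or more (adjusted p 0.034). The change was −0.49 without shLuc library 3 and −0.79 without shLuc library 2. From Lztfl1 to Cxcr6 the 4 genes thus had log2 changes of −0.64, −0.87, 0.08 and 0.39 in order. Beyond them, Slc6a20b, Xcr1, Ccr1 and Ccr1l1 were below the level tested and Slc6a20a, an amino acid transporter, was at 0.605 to 1.29 RPKM.

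**Figure D4:**
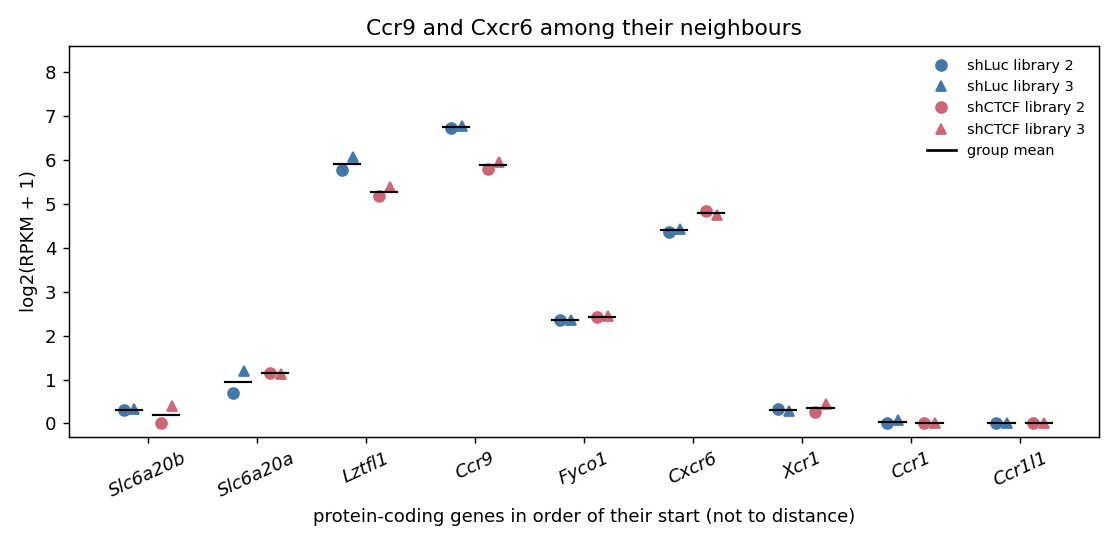
Level as log2(RPKM + 1) (y axis) of Ccr9, Cxcr6 and the protein-coding genes around them, in the order of their starts and not to distance, for the shLuc (blue) and shCTCF (red) libraries, with group means as bars. Lztfl1 and Ccr9 are lower and Cxcr6 higher in both shCTCF libraries, and Fyco1 between them is near 4 RPKM in all.

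Around Ccr4 no such neighbour was seen. The nearest tested row before it joins Glb1, the lysosomal beta-galactosidase, and Tmppe, and was at 33.4 and 33.3 RPKM in shLuc and at 35.0 and 33.0 RPKM in shCTCF libraries (log2 change 0.03, adjusted p 0.94 in limma). The nearest tested gene after it, Cnot10, a subunit of the CCR4-NOT deadenylase that is unrelated to the receptor of similar name, had a log2 change of −0.04 (adjusted p 0.91). Over all 9 receptors, the 3 nearest protein-coding genes on each side were 49 genes, of which 24 rows were tested. None was called in limma, and 2 of 24 had an unadjusted p below 0.05 (Lztfl1 and Csrnp1, both lower) beside 14.1% of all tested genes. Limma-voom on recovered reads called these same 2 of 18, where it called 2.51% of all its genes lower. In limma 10 of the log2 changes were above 0 and 14 below, with a median of −0.02, beside 0.01 over all tested genes. The most abundant of them, Rpsa near Ccr8 and Top2a near Ccr7, had log2 changes of 0.00 and −0.02.

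Since Ccr4 and Ccr9 were both lower while Cxcr6, next to Ccr9, was not, the 250 bases before the start of these 3 genes are shown to compare the letters of their promoters. They are from RefSeq, build GRCm38.p6, 5′ to 3′ on the strand of the gene. Capitals mark the letters of the CTCF core, searched on both strands with 4 forms (first AGGTGGC, then AGGGGGC, further AGATGGC, and lastly AGAGGGC) that were chosen after the sequences were at hand. The stretches are chr9:114496545-114496794 on the minus strand for Ccr4, chr9:123766961-123767210 on the plus strand for Ccr9 and chr9:123806227-123806476 on the plus strand for Cxcr6.
Ccr4: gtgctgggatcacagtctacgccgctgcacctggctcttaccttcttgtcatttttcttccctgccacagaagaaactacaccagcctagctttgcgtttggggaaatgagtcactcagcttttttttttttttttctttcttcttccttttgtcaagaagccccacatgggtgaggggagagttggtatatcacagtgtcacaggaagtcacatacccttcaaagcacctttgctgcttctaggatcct
Ccr9: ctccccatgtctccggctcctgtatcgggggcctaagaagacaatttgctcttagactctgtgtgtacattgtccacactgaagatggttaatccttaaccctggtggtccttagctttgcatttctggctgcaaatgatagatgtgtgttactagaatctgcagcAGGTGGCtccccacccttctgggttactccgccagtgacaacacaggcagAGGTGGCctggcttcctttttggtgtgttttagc
Cxcr6: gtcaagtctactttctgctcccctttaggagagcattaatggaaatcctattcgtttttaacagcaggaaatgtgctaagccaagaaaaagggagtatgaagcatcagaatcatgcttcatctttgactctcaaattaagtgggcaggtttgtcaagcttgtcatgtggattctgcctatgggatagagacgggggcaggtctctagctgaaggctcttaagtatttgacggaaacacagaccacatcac
The Ccr9 stretch holds the core letters AGGTGGC at 2 places, 84 to 78 and 34 to 28 bases before the start, and the Ccr4 and Cxcr6 stretches hold none of the 4 forms. Of 32851 promoter stretches of this length, 23.6% hold at least 1 match and 3.68% hold 2 or more. The first match of Ccr9 overlaps an E-box (CAGGTG or CAGCTG, a motif of basic helix-loop-helix factors), which 27.7% of all stretches hold. Ccr4 holds an E-box too, 223 to 218 bases before its start, and Cxcr6 holds none. Of the other receptors, Ccr8 and Cxcr3 hold 1 CTCF core match each and Cxcr4 holds none. In all, 6 of the 9 genes had an entry in the promoter table, and Ccr7, Cxcr5 and S1pr1 are named only. A match is a description of letters and says nothing of binding, and CTCF occupancy in EL4 cells was not analysed here.

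The GC content of these stretches was 46.4% for Ccr4, 50.4% for Ccr9 and 43.6% for Cxcr6, against a median of 52.4% over all. The Cxcr4 stretch was richer in GC, at 61.2%, and holds the TATA letters TATAAA 30 to 25 bases before the start, which 12.4% of all stretches hold somewhere on either strand.

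The other genes of the pathway were taken from lists by role. The other receptors for chemokines were almost silent: 14 of 15 with a row of their own lay below 1 RPKM, 5 of them at 0 in every library. Darc (Ackr1), an atypical receptor that binds chemokines without signalling, was the one tested, at 5.75 ± 0.436 RPKM in controls and 6.00 ± 0.227 RPKM with the shCTCF hairpin (log2 change 0.05, not called by limma or limma-voom). The chemokines themselves were also low, with 25 of 34 at 0 in all libraries. Ccl25, the ligand of CCR9, was at 5.72 and 6.54 RPKM in shLuc and at 5.10 and 6.71 RPKM in shCTCF libraries, overlapping, with a log2 change of −0.05. Ccl5, a ligand of other receptors, rested on 2 to 11 reads in a library and had a log2 change of −0.56 (SE 0.30). Neither ligand was called, and 0 of the 2 had an unadjusted p below 0.05.

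Of the genes for S1P receptors and metabolism, 5 of 11 were tested, none was called by limma or by limma-voom and the median log2 change was −0.18. S1pr2 had an unadjusted p below 0.05, as 1 of the 5 (14.1% of all tested genes), with a log2 change of −0.30. The S1P receptor with the highest level was S1pr5, at 176 and 160 RPKM in shLuc and at 171 and 166 RPKM in shCTCF libraries (log2 change 0.00). S1pr2 was at 43.2 and 36.5 RPKM in shLuc and at 33.9 and 30.4 RPKM in shCTCF libraries, and S1pr1 was near 0 as given above. Sgpp1, an S1P phosphatase, had 49.2 ± 0.712 RPKM in controls and 43.3 ± 2.04 RPKM with the shCTCF hairpin (log2 change −0.18, SE 0.08, not called).

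Among adhesion and other homing receptors, 9 of 16 were tested, 1 fell, none rose and the median log2 change was −0.10. Over all tested genes limma called 0.596% lower and 0.697% higher. In limma 2 of the 9 had an unadjusted p below 0.05, both lower, beside 5.93% of all tested genes. Limma-voom called 0 of 5. Itgal, the alpha chain of the integrin LFA-1, which chemokine receptors activate, was at 50.1 and 49.6 RPKM in shLuc and at 37.4 and 35.2 RPKM in shCTCF libraries. Its groups did not overlap, and it fell by 0.45 on the log2 scale (SE 0.08, adjusted p 0.046 in limma). In limma the call was lost with low genes left in the fit (adjusted p 0.12) and under quantile normalization (adjusted p 0.054). It was also lost without any of the 4 libraries (log2 change −0.49 to −0.40). Cd44 and the other 7 tested genes of the list were not called.

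Of the genes for G proteins and receptor desensitisation, 17 of 23 were tested, 1 rose, none fell and the median log2 change was 0.01. Over all tested genes limma called 0.697% higher and 0.596% lower. In limma 1 of the 17 had an unadjusted p below 0.05, higher, beside 8.19% of all tested genes. Limma-voom called this same gene, as 1 of 12, where it called 2.89% of all its genes higher. The gene that rose was Rgs2, which encodes a protein that speeds the shut-off of G proteins. It was at 4.31 and 4.55 RPKM in shLuc and at 7.80 and 9.85 RPKM in shCTCF libraries (68 and 84 against 102 and 171 reads). The groups did not overlap, and the log2 change was 0.85 (SE 0.14, adjusted p 0.035 in limma). In limma the call was lost with low genes left in the fit (adjusted p 0.17). It held without shCTCF library 2 (log2 change 1.00). It was lost without shCTCF library 3, shLuc library 2 or shLuc library 3 (log2 changes 0.70, 0.82 and 0.88). Gnai2, the main Gi subunit that these receptors use in lymphocytes, was at 211 and 188 RPKM in shLuc and at 205 and 196 RPKM in shCTCF libraries.

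All 24 genes of migration signalling were tested, with 1 lower, none higher and a median log2 change of −0.06. Over all tested genes limma called 0.596% lower and 0.697% higher. In limma 5 of the 24 had an unadjusted p below 0.05, 4 lower and 1 higher, beside 14.1% of all tested genes. Limma-voom called 2 of 18, Rassf5 and Coro1a (log2 change −0.25 in limma), where it called 2.51% of all its genes lower and 2.89% higher. Rassf5, whose product links Rap1 to integrins and so to the response to chemokines, was at 101 and 106 RPKM in shLuc and at 70.5 in both shCTCF libraries (1802 and 2214 against 1043 and 1384 reads). Rassf5 fell by 0.55 on the log2 scale (SE 0.08, adjusted p 0.016 in limma). The call was lost with low genes left in the fit (adjusted p 0.066 in limma). It was also lost in every fit that left out a library (log2 change −0.58 to −0.51). Of the transcription factors known to act on such receptor genes, 15 of 21 were tested, none was called in limma and the median was −0.12. Of these 15, 2 had an unadjusted p below 0.05 (Irf4 and Gata3, both lower), beside 14.1% of all tested genes. Limma-voom called 1 of 10, Irf4, at −0.48 in limma, where it called 2.51% of all its genes lower. Tcf7 had 921 ± 44.4 RPKM in controls and 842 ± 29.3 RPKM with the shCTCF hairpin (log2 change −0.13), and Tcf12, which binds E-boxes, was at 99.1 ± 0.183 against 105 ± 1.42 RPKM (log2 change 0.08).

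Across these lists 3 of 73 tested genes were called (4.11%), 2 lower and 1 higher, beside 1.29% of all tested genes. Nothing particular to the lists is read from this count.

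**Figure D5:**
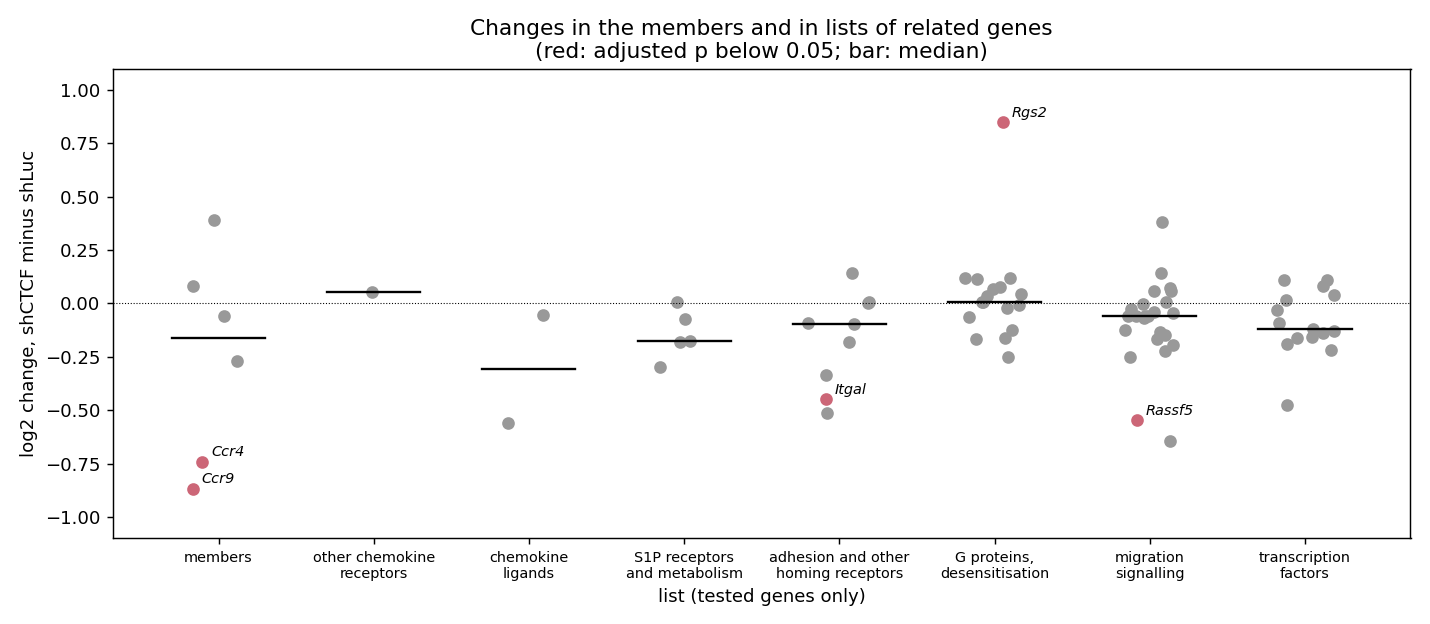
Log2 change, shCTCF minus shLuc (y axis), of the tested receptor genes and of the tested genes in 7 lists of related genes, with 1 point a gene, red where the adjusted p in limma is below 0.05, and a bar at the median. Ccr9, Ccr4, Itgal and Rassf5 are lower and Rgs2 is higher, and most other points lie between −0.30 and 0.15.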

How the data were processed

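RNA-seq libraries were made from poly(A) RNA, 2 per hairpin. The titles number them r1 and r2 while the columns of the expression table are headed 2 and 3, so columns were grouped by the hairpin in their header and not matched to single samples. The submitters' processing notes name Bowtie2 and the build mm9, and no gene counter is named. The authors deposited RPKM values per gene in a table of 22119 rows. The authors' deposited table of changed genes also holds log2 fold changes, p-values and FDRs. For single-transcript rows with a mean of 1 RPKM or more, 98.3% of 7035 came out as whole reads in every library (relative tolerance 2e-11). Over all 10210 rows with recovered reads, at any level, these came to 3336505 and 3900299 in the shLuc libraries and to 2768917 and 3676090 in the shCTCF libraries.

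One row per symbol with a mean of 1 RPKM or more was tested on log2(RPKM + 1) with limma 3.58.1 (functions lmFit and eBayes, trend on) under R 4.3.3, using Benjamini-Hochberg adjustment over 9898 genes, a threshold of 0.05 and no covariate. The fit was also run on counts simulated for genes with recovered reads, with an assumed spread between libraries. That simulation leaves out joined rows such as that of Ccr9, and does not use the spread seen here. The receptor genes and the lists were chosen with earlier results of these data known, and 1 gene of the adhesion list is not reported here. Named were all receptor genes, Ctcf, every called gene of a list, in lists without one up to 2 of the most abundant tested genes, the nearest tested neighbours of Ccr4 and Ccr9, and the 3 genes most like each of these. Gnai2, Cd44, S1pr2, Irf4, Gata3, Csrnp1, Coro1a, Bcl9l, Cd4, Cd5, Cd8a, Cd8b1, Cd28, the neighbours of Ccr9 and Cxcr6 beyond Lztfl1 and Fyco1, and the genes of the closing observations marked so were named after their values were seen. Alternatives changed the pseudocount to 0.1, the filter, the normalization or the libraries, added a replicate block, or used limma-voom on recovered reads, the last chosen after seeing the data. The Hi-C domain lists were not used, since gene positions in mm9 were not at hand. Python 3.11.15, numpy 2.4.6, pandas 2.3.3 and matplotlib 3.10.9 were used.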

Additional observations from a re-analysis of the deposited data

How the results depend on the processing

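The log2 change of Ccr9 (−0.94 to −0.79), Ccr4 (−0.82 to −0.66), Ccr8 (−0.33 to −0.20), Cxcr4 (−0.10 to −0.02) and Cxcr6 (0.35 to 0.43) kept its sign in all 10 or 11 alternatives that could be run for each, and that of Ccr7 in 8 of 10. The filters and the replicate block leave a log2 change as it was. Leaving out 1 library cannot turn the sign where the groups do not overlap, as for Ccr9, Ccr4, Ccr8 and Cxcr6. Their kept signs were thus largely fixed in advance and are no support. Ccr9 and Ccr4 were moreover selected on this difference. Counts of calls moved more. With low genes left in, limma called 9 genes higher and 15 lower, 1 receptor (Ccr9) lower and 0 genes of the pathway lists. On recovered reads, limma-voom called 199 genes higher and 173 lower, with 1 receptor lower (Ccr4, since Ccr9 had no recovered reads), 1 higher (Cxcr6) and 2 neighbours. When 1 library was left out, 0 to 60 genes were called higher and 0 to 45 lower, 0 to 2 receptors lower and 0 to 1 list genes. Such fits keep a lone library in a group, assumed to vary like the others, and have fewer degrees of freedom. Among neighbours, 1 was called with a minimum mean of 5 RPKM and 1 with median centring, Lztfl1 in both, and median centring called 5 list genes.

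The same header number in both groups is not stated to pair libraries. Deviations of same-numbered libraries from their group means correlated at 0.16 over 9898 genes. With a replicate block, 294 genes were called higher and 213 lower, 1 receptor (Cxcr6) higher beside Ccr9 and Ccr4 lower, 6 genes of the lists and 2 neighbours. A replicate block and limma-voom therefore call more genes than the test used here. Depth limits Ccr7, Cxcr3, Cxcr5 and S1pr1, which had at most 24 reads in a library. The cause of these shifts was not tested.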

Other observations

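The genes whose 4 library values ran closest to those of Ccr4, by Euclidean distance of log2(RPKM + 1) centred on each gene's mean, were 5830405N20Rik (distance 0.075), the joined row of C1qtnf1 and Gm11747 (0.077) and Bola3, a factor of iron-sulfur cluster assembly (0.099). Bola3 was at 60.8 and 59.7 RPKM in shLuc and at 36.0 and 34.3 RPKM in shCTCF libraries. Closest to Ccr9 were Ppa2, the mitochondrial pyrophosphatase (0.112), Ctcf itself (0.116) and Pglyrp2, an amidase of peptidoglycan (0.133). Ppa2 was at 19.7 and 21.7 RPKM in shLuc and at 9.50 and 10.7 RPKM in shCTCF libraries. The points are only 4 libraries in 2 groups, so any gene with a like difference between the groups comes close.

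Klf2, which encodes an activator of S1pr1 in T cells, had 0 and 4 reads in shLuc and 7 and 0 reads in shCTCF libraries 2 and 3. The shCTCF library with 10 reads of S1pr1 was also the one with 7 reads of Klf2, while shLuc library 3 had 4 reads of Klf2 and 1 of S1pr1. A link between Klf2 and S1pr1 was not tested. Igfbp4, a neighbour of Ccr7, had 1 and 0 reads in shLuc and 17 and 2 reads in shCTCF libraries 2 and 3. Ccr10 had 1 and 1 reads in shLuc and 4 and 6 reads in shCTCF libraries, all below 1 RPKM. Klf2, Igfbp4 and Ccr10 were named after their values were seen, and their differences were not tested.

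Further genes of the lists that came near the threshold, named after their values were seen, were Ptger4, a prostaglandin E2 receptor (16.2 and 16.0 against 11.6 and 10.5 RPKM, log2 change −0.51, adjusted p 0.057 in limma), and Pik3cg, the kinase subunit activated by G protein beta-gamma (6.57 and 6.52 against 3.68 and 4.00 RPKM, log2 change −0.64, adjusted p 0.060). Gata3, a transcription factor of Th2 cells, was at 62.3 and 65.6 RPKM in shLuc and at 54.8 and 54.9 RPKM in shCTCF libraries (log2 change −0.22, adjusted p 0.25).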
